A study of Oryza sativa Japonica Group with 38 samples.

Results

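RNA taken from isolated nuclei was compared with whole-cell RNA lacking a poly(A) tail in rice (Oryza sativa, japonica), for long noncoding RNAs (lncRNAs, transcripts with no evident protein-coding capacity). The comparison took 17 of the 38 samples of the study, chosen by their labels: 8 nuclear samples and 9 poly(A)- samples, with 2 poly(A)- samples for drought. Each fraction had 1 column of values in each of 8 conditions, and 959 of the 7231 listed genes were high enough to be tested.

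The study addressed lncRNAs that respond to stress and where in the cell they are found. The labels give a single ecotype for all plants (written japanica) and an age of 2 weeks; plants were grown in days of 12 h at 28 °C and nights of 12 h at 22 °C. The 5 stressed groups were seedlings exposed to cold at 4 °C, drought by drying in air, heat at 50 °C, high light at 50000 lux or high salt at 300 mM NaCl. The 3 unstressed groups were untreated seedlings, and leaves and roots of untreated seedlings. Nuclear RNA was total RNA, so it held molecules with and without a tail, whereas poly(A)- RNA came from whole cells. Location and tail selection therefore change together between the fractions and cannot be told apart.

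Most lncRNAs are made by RNA polymerase II, and many are capped and carry a poly(A) tail as mRNAs do. Others have no tail, among them transcripts of the plant polymerase V, which act at chromatin in RNA-directed DNA methylation. Nuclear RNA keeps transcripts that stay at chromatin or have not yet been exported, while a whole-cell fraction without tails also holds RNA of the cytoplasm and the organelles. The listed loci have no gene names in the sources used here, so each is given by its identifier, position and structure: OS identifiers are annotated rice loci, EPlOSAG identifiers come from a second annotated set, and XLOC identifiers are loci assembled by the authors.

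Values were FPKM, fragments per kilobase of exon, scaled to the reads of the library, which allow levels to be compared between genes. Nuclear libraries held between 24.6 and 94.9 M reads (M, units of 1e6), and poly(A)- libraries between 50.2 and 101 M, as recovered from the largest step of the FPKM values that gave whole reads. If the true counts were whole multiples of these, depth would be larger by the same factor. The listed lncRNAs took 0.454% to 1.71% of the reads of a nuclear library, against 1.54% to 3.41% of a poly(A)- library, and the part of this share in the results was not tested. A few loci carried much of it: the 7 loci of one exon length described below took 30.1% to 50.6% of these listed reads in nuclear RNA and 29.5% to 62.9% in poly(A)- RNA, and XLOC_048089 with XLOC_043227 took 0.83% to 39.3% in nuclear RNA and 0.143% to 44.9% in poly(A)- RNA. Whether the 7 loci of one length are lncRNAs was not tested, since no sequences were compared. The lists hold only loci given as lncRNAs, so no marker of nuclear purity or of a cell type was measured. In such bulk samples, fewer cells of a type and less RNA per cell cannot be told apart. The labels do not say whether the samples were grown as separate cultures, and the p-values therefore cover the spread among these samples alone, part of which may be technical.

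Nuclear RNA held less of most tested lncRNAs than poly(A)- RNA. Of the 959 genes, 161 were lower in nuclear RNA, or 16.8%, and 9 were higher, or 0.938%. A gene was called where limma, a linear model that shares the estimate of spread between genes, gave a Benjamini-Hochberg adjusted p below 0.05 and a difference of at least 2-fold on the log2(FPKM + 1) scale, with condition as a block. The median difference, nuclear minus poly(A)-, was -0.48 on that scale, and 783 genes (81.6%) had a negative difference; with the median of each library subtracted it was -0.06. Only genes that reached 1 FPKM in 3 or more of the 16 libraries entered the test, and 82 of the 161 lower genes met this through poly(A)- libraries alone, as did 4 of the 9 higher genes through nuclear libraries alone. Those 4 were XLOC_007631, XLOC_006326, XLOC_006327 and XLOC_042705. The 82 included XLOC_072070, XLOC_068781, XLOC_037282, OS04G0655100, OS07G0139600 and EPlOSAG00000046965, all named below. For these genes the filter leaned to the side on which they were called. The scale understates changes of genes that are low in both fractions.

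The shift between the fractions was uneven over conditions. The median log2 difference was -1.13 in high salt, -0.91 in high light, -0.72 in roots, -0.71 in cold and -0.42 in heat. It was -0.04 in untreated seedlings, and it was above 0 in drought at 0.12 and in leaves at 0.35. The poly(A)- side varied more than the nuclear side: the median gene had 0.346 to 1.25 FPKM in the nuclear libraries, against 0.355 to 2.51 FPKM in the poly(A)- libraries. The lowest poly(A)- median was that of drought, and the highest was that of high salt.

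**Figure D1:**
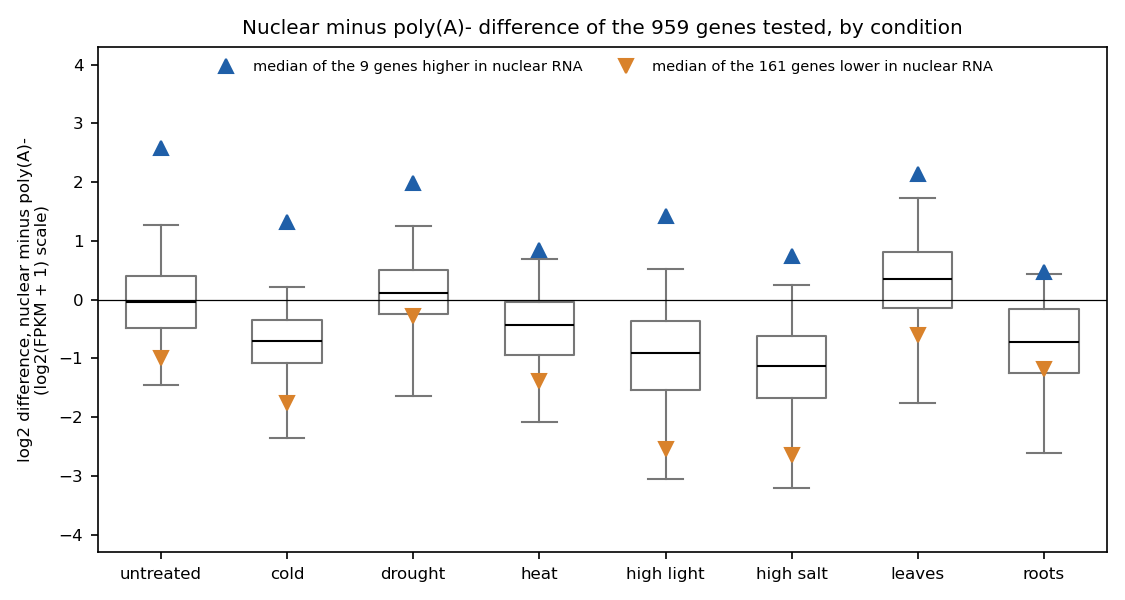
Nuclear minus poly(A)- difference on the log2(FPKM + 1) scale (y axis) in the 8 conditions (x axis) for the 959 genes tested; boxes give quartiles and median, whiskers the 5th and 95th percentiles. Triangles are medians of the 9 genes called higher and the 161 called lower in nuclear RNA; the boxes centre above 0 in drought and leaves and lie lowest in high salt.

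Counts by size within each condition followed the same unevenness. Among genes of at least 1 FPKM in 1 or both columns of a condition, those at least 2-fold lower in nuclear RNA made up 55% of 1123 in high salt, 55% of 822 in roots, 51.2% of 959 in high light, 38.1% of 640 in heat and 37.7% of 772 in cold. The share at least 2-fold higher in nuclear RNA was 1.16% in high salt, 3.16% in roots, 1.88% in high light, 4.53% in heat and 1.81% in cold. These conditions leaned to poly(A)- RNA. Drought had 21.8% higher and 20.6% lower of 427 genes, and untreated seedlings had 22.4% higher and 19.3% lower of 514. Leaves leaned to nuclear RNA, with 34.1% higher and 10.4% lower of 995. Each of these counts rests on 1 library per fraction, so no test was made.

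The 9 genes higher in nuclear RNA were 6 XLOC loci and 3 OS loci, against 589 XLOC and 344 OS loci among the 959 genes tested. Chromosome 1 held 5 of the 9, against 132 of the 959. The difference had the same sign in all 8 conditions for 5 of them, which the test that chose them favours. None of the 9 had another listed locus on the opposite strand over at least 0.5 of its span, against 58 of the 959.

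XLOC_007631, a single-exon locus of 285 nt on chromosome 1 (14567147 to 14567432, minus strand), had the smallest adjusted p of the 9. It ranged from 0.133 FPKM in roots to 6.61 FPKM in high light in nuclear RNA with a median of 3.15 FPKM, against 0 to 0.28 FPKM with a median of 0.0512 FPKM in poly(A)- RNA. The nuclear levels of leaves and roots, at 0.333 and 0.133 FPKM, were the low ones, and the roots' level lay within the poly(A)- range. The log2 difference was 1.66 ± 0.28 (SE; limma, Benjamini-Hochberg adjusted p = 2.92e-06). Its poly(A)+ level averaged 0.108 FPKM, so it was low in both whole-cell fractions.

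XLOC_006326 and XLOC_006327 are single-exon loci that follow each other on the minus strand of chromosome 1, at 4480386 to 4480792 and 4481099 to 4483367, with 307 nt between them. XLOC_006327 ranged from 0.852 to 5.02 FPKM in nuclear RNA with a median of 1.91 FPKM, against 0.0263 to 0.462 FPKM with a median of 0.142 FPKM in poly(A)- RNA. It was the 1 gene of the 9 whose fractions did not overlap, against 13 of the 959 genes tested. Leaves were highest and heat lowest among its nuclear libraries. Nuclear minus poly(A)- came to 1.37 ± 0.27 (SE) in log2 (limma adjusted p = 3.98e-05). XLOC_006326 ranged from 1.03 to 5.01 FPKM in nuclear RNA with a median of 3.55 FPKM, against 0 to 1.49 FPKM with a median of 0.34 FPKM in poly(A)- RNA, with a log2 difference of 1.39 ± 0.31 (SE; limma adjusted p = 0.000216). Its highest poly(A)- level was in leaves, above its nuclear levels of heat and roots. They were the only neighbouring pair of higher genes among the 72 pairs of tested loci on 1 strand that lay within 5000 nt of each other.

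XLOC_051819, a 241 nt single-exon locus on chromosome 4 (145577 to 145818, plus strand), had the largest difference of the 9 and the highest nuclear mean. Its nuclear level was 131 FPKM in untreated seedlings, 129 FPKM in high light and 109.6 FPKM in heat, 50.3 FPKM in high salt, 26.7 FPKM in drought, 24 FPKM in roots, 11.6 FPKM in cold and 0.787 FPKM in leaves. Its poly(A)- level was 42.1 FPKM in heat, between 4.03 and 17.6 FPKM in untreated seedlings, cold, high light and high salt, 0.628 FPKM in roots, and it was listed at 0 in drought and leaves. Each condition had the higher level in nuclear RNA, though levels overlapped between conditions. The log2 difference was 2.72 ± 0.61 (SE; limma adjusted p = 0.000235), with means of 60.4 ± 54.3 FPKM in nuclear RNA and 9.82 ± 14.3 FPKM in poly(A)- RNA (SD over conditions, n = 8).

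XLOC_042705, a 922 nt locus on chromosome 3 (7965174 to 7966096), was the fifth gene higher in all 8 conditions. It had 0.329 to 14.5 FPKM in nuclear RNA with a median of 3.27 FPKM, against 0 to 1.65 FPKM with a median of 0.491 FPKM in poly(A)- RNA, and a log2 difference of 1.48 ± 0.34 (SE; limma adjusted p = 0.000324). The nuclear level of leaves stood highest and that of roots lowest. Unlike the 4 loci above, it was higher in poly(A)+ RNA than in either of these fractions, with a mean of 33.4 FPKM. OS01G0911133, a spliced locus of 2 exons on chromosome 1, was the other gene of the 9 with a high poly(A)+ level, at a mean of 21.6 FPKM. It averaged 4.06 ± 2.17 FPKM in nuclear RNA and 1.32 ± 0.867 FPKM in poly(A)- RNA (SD over conditions, n = 8; log2 difference 1.10, limma adjusted p = 0.0149), and was higher in nuclear RNA in all conditions but cold and roots. Its call was lost without untreated seedlings, drought or leaves (log2 differences 0.88, 0.97 and 0.98).

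The last 3 genes had their highest nuclear level in leaves, as did 5 of the 9 and 500 of the 959 genes tested. The nuclear library of leaves had 842 listed genes at 1 FPKM or more, against 197 to 382 in the other nuclear libraries. OS02G0618000 on chromosome 2 had 98.4 FPKM in the nuclear RNA of leaves and 1.64 to 19.9 FPKM in the other nuclear libraries, against 0.0596 to 8.93 FPKM in poly(A)- RNA. OS01G0259933, a spliced locus on chromosome 1, had 41.5 FPKM in the nuclear RNA of leaves and 2.14 to 13.7 FPKM in the others, against 0.135 to 4.28 FPKM in poly(A)- RNA. XLOC_014981 on chromosome 10 had 90.2 FPKM in the nuclear RNA of leaves and 2.73 to 38.7 FPKM in the others, against 1.61 to 19.7 FPKM in poly(A)- RNA. The fractions of all 3 overlapped, and their log2 differences were 1.27, 1.54 and 1.58 (limma adjusted p = 0.0329, 0.0105 and 0.0318). The call of OS02G0618000 was lost without leaves, untreated seedlings or drought (limma adjusted p = 0.11, 0.085 and 0.082), and that of XLOC_014981 without untreated seedlings, cold or high light (limma adjusted p = 0.12, 0.082 and 0.057). The call of OS01G0259933 was lost among the 6 seedling conditions alone (limma adjusted p = 0.079). That of OS02G0618000 was lost there too, with a log2 difference of 0.77. Without the condition block the calls of OS02G0618000 and XLOC_014981 were lost as well.

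**Figure D2:**
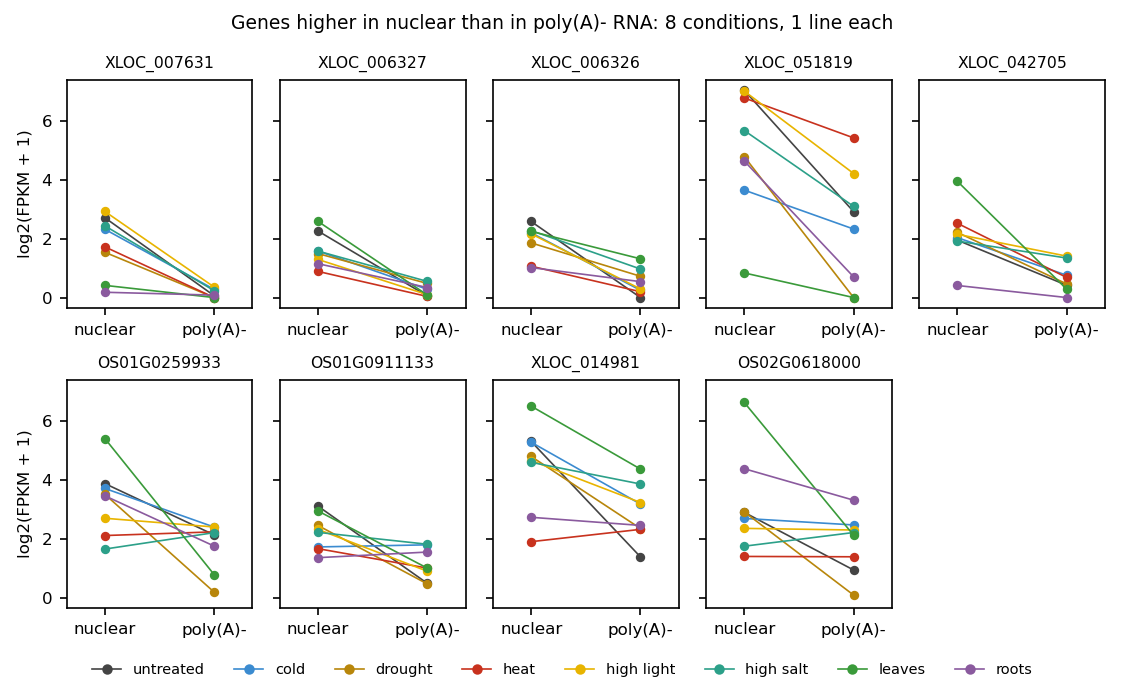
Level on the log2(FPKM + 1) scale (y axis) of the 9 genes called higher in nuclear RNA, in nuclear (left) and poly(A)- (right) libraries; each line joins the 2 libraries of 1 condition. The lines fall to the right in all 8 conditions for the 5 genes of the upper row, and green points mark leaves.

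Among the 161 genes lower in nuclear RNA, 65 were lower in all 8 conditions, against 94 of all 959 genes tested. The 10 of these with the largest differences were single-exon XLOC loci of 204 to 4084 nt, and their log2 differences ran from -3.87 to -2.73. All 10 were lower also with library medians subtracted. Their fractions overlapped across conditions in 7 of the 10, because levels of whole conditions differed. Fractions did not overlap in 6 of the 161 lower genes and in 13 of all 959.

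XLOC_020424, a 397 nt locus on chromosome 11 (22518806 to 22519203), led by size. Its nuclear level was listed at 0 in roots, 0.637 to 2.25 FPKM in 6 libraries and 10.5 FPKM in heat, with a median of 1.08 FPKM. Its poly(A)- level was 1.27 FPKM in roots and 16.7 to 153 FPKM in the other libraries, with a median of 40.6 FPKM. Roots were low and heat was high on the nuclear side, and high salt was highest on the poly(A)- side. Of all 959 genes tested, 421 had their lowest nuclear level in roots, ties included, and 407 their highest poly(A)- level in high salt. Those 2 places were thus common to many genes, whereas heat held the highest nuclear level in 105. On the log2 scale nuclear minus poly(A)- was -3.87 ± 0.58 (SE), with a limma adjusted p of 1.83e-07.

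The low place of roots and the high nuclear level of heat recurred in 6 more of the 10. XLOC_072070, XLOC_060509, XLOC_081461, XLOC_096146, XLOC_028771 and XLOC_057766 each had their lowest level of both fractions in roots and their highest nuclear level in heat. Across the 959 genes tested, roots were lowest in nuclear RNA in 421 and in poly(A)- RNA in 111. Ties counted for roots in the 421 and for another condition in the 111, so these counts are not alike. XLOC_060509, a locus of 3778 nt on chromosome 5 (405000 to 408778), had 0.0803 FPKM in roots, 27.4 FPKM in heat and 2.58 to 10.7 FPKM in the other libraries of nuclear RNA. In poly(A)- RNA it had 1.32 FPKM in roots, 29.3 FPKM in heat and 26.4 to 235 FPKM in the others, so the fractions were nearly level in heat alone. XLOC_028771 on chromosome 12 had, in heat, 34.2 FPKM in nuclear RNA and 44.9 FPKM in the poly(A)- library, and, in cold, 7.98 FPKM in nuclear RNA and 201 FPKM in the poly(A)- library. XLOC_096146 on chromosome 9 had, in heat, 9.33 FPKM in the nuclear library and 16.4 FPKM in the poly(A)- library, where the fractions lay closer on the log2(FPKM + 1) scale than in any other condition.

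The other 3 of the 10 showed the reverse place of roots in poly(A)- RNA alone, where their level was highest in roots. The same held for 213 of the 959 genes tested. Their nuclear level was lowest in roots, as in 421 of the 959. XLOC_053321, a 362 nt locus on chromosome 4 (16289096 to 16289458), had 2.04 FPKM in nuclear RNA and 378 FPKM in poly(A)- RNA of roots, the widest gap of any of its conditions. Over all conditions it had 2.04 to 11.1 FPKM in nuclear RNA with a median of 7.20 FPKM, against 20 to 378 FPKM in poly(A)- RNA with a median of 102 FPKM, and the fractions did not overlap (log2 difference -3.54 ± 0.66, SE; limma adjusted p = 1.56e-05). XLOC_026433, a 204 nt locus on chromosome 12, had 1.12 to 5.06 FPKM in nuclear RNA, against 15.2 to 296 FPKM in poly(A)- RNA, with roots again at both ends. XLOC_010108, a 3939 nt locus on chromosome 1, had 0.597 to 4.14 FPKM in nuclear RNA, against 7.79 to 61.6 FPKM in poly(A)- RNA. Their fractions did not overlap either, and their log2 differences were -3.40 and -2.73 (limma adjusted p = 1.56e-05 and 9.02e-05).

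**Figure D3:**
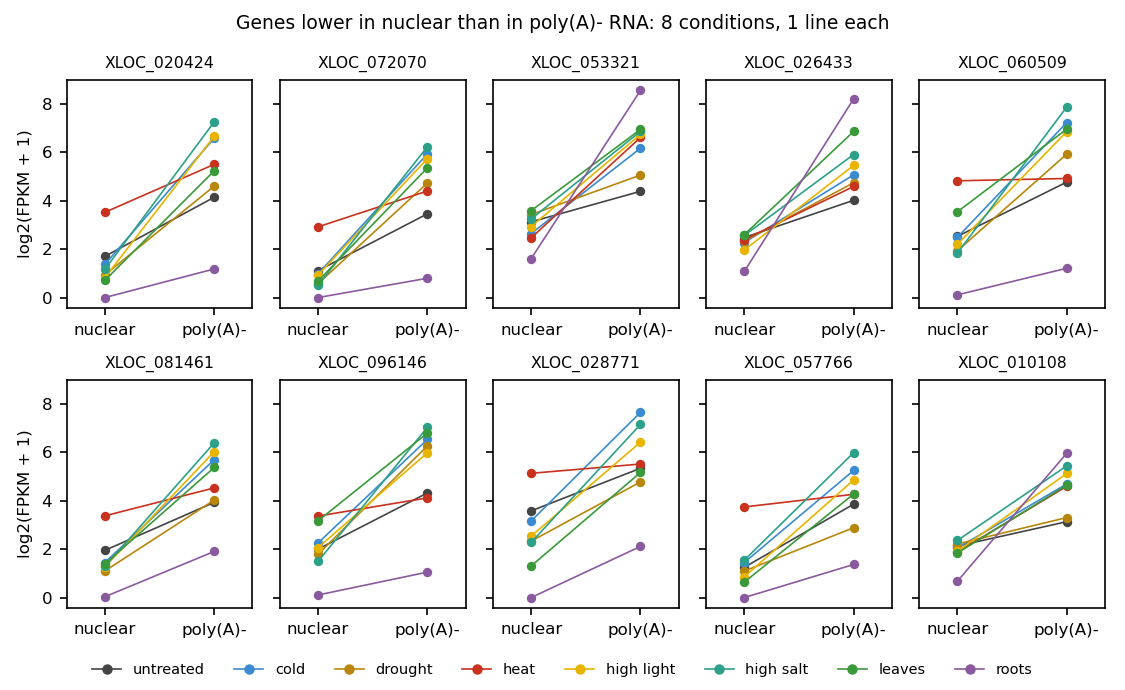
Level on the log2(FPKM + 1) scale (y axis) of the 10 genes with the largest differences among those lower in nuclear RNA in all 8 conditions, in nuclear (left) and poly(A)- (right) libraries; each line joins the 2 libraries of 1 condition. The line of roots (purple) lies lowest in 7 genes and ends highest in XLOC_053321, XLOC_026433 and XLOC_010108; the line of heat (red) is nearly flat in XLOC_060509 and XLOC_028771.

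Poly(A)+ RNA, which took no part in the test, parted the 161 lower genes into 2 kinds. Its mean over the 7 conditions with usable columns was the highest of the 3 fractions in 80 genes, and poly(A)- RNA was the highest in 81. Of the 73 genes lower with library medians subtracted, the numbers were 23 and 50. Among all 959 genes, poly(A)+ RNA was the highest in 763, poly(A)- RNA in 161 and nuclear RNA in 35, and nuclear RNA was the highest in 7 of the 9 higher genes. Of the 161 genes highest in poly(A)- RNA, 81 were lower in nuclear RNA (50.3%), and of the 763 highest in poly(A)+ RNA, 80 were lower (10.5%) and 2 higher. With library medians subtracted, 50 of the same 161 were lower and none higher, and 23 of the same 763 were lower and 21 higher. These placings use the poly(A)- and nuclear values of the test itself, so they are a description.

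The 81 genes highest in poly(A)- RNA had a median poly(A)+ level of 0.641 FPKM and a median log2 difference of -1.70. Of these, 80 had a single exon, against 719 of the 959 genes tested, and 70 were XLOC loci, against 589 of the 959. In at least 1 small RNA library 55 reached 1 FPKM (67.9%), against 13.5% of all genes tested. The 80 genes highest in poly(A)+ RNA had a median poly(A)+ level of 39.1 FPKM and a median log2 difference of -1.34. In this second kind 62 had a single exon (77.5%, near the share of all genes), 44 were OS loci, against 344 of the 959, and 7 (8.75%) reached 1 FPKM in small RNA. The kinds also differed by condition: in leaves the median log2 difference was -1.92 in genes highest in poly(A)- RNA and 0.24 in genes highest in poly(A)+ RNA.

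Examples of the second kind were OS04G0655100 and OS07G0139600. OS04G0655100, a 319 nt single-exon locus on chromosome 4 (33415315 to 33415634), had 0.0563 to 0.892 FPKM in nuclear RNA with a median of 0.323 FPKM, against 0.104 to 21.8 FPKM with a median of 8.42 FPKM in poly(A)- RNA and a mean of 13.3 FPKM in poly(A)+ RNA. It was low in the poly(A)- RNA of drought, leaves and roots and high in the 5 other conditions, with a log2 difference of -2.07 ± 0.36 (SE; limma adjusted p = 4.5e-06). OS07G0139600, the spliced gene with the smallest adjusted p, has 2 exons on chromosome 7 (2092777 to 2093696). It had 0.165 to 2.00 FPKM in nuclear RNA with a median of 0.376 FPKM, against 0.0903 to 32.7 FPKM in poly(A)- RNA with a median of 8.20 FPKM, with drought lowest in both fractions (log2 difference -2.03 ± 0.38, SE; limma adjusted p = 1.56e-05). Both were lower in nuclear RNA in 7 of 8 conditions.

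**Figure D4:**
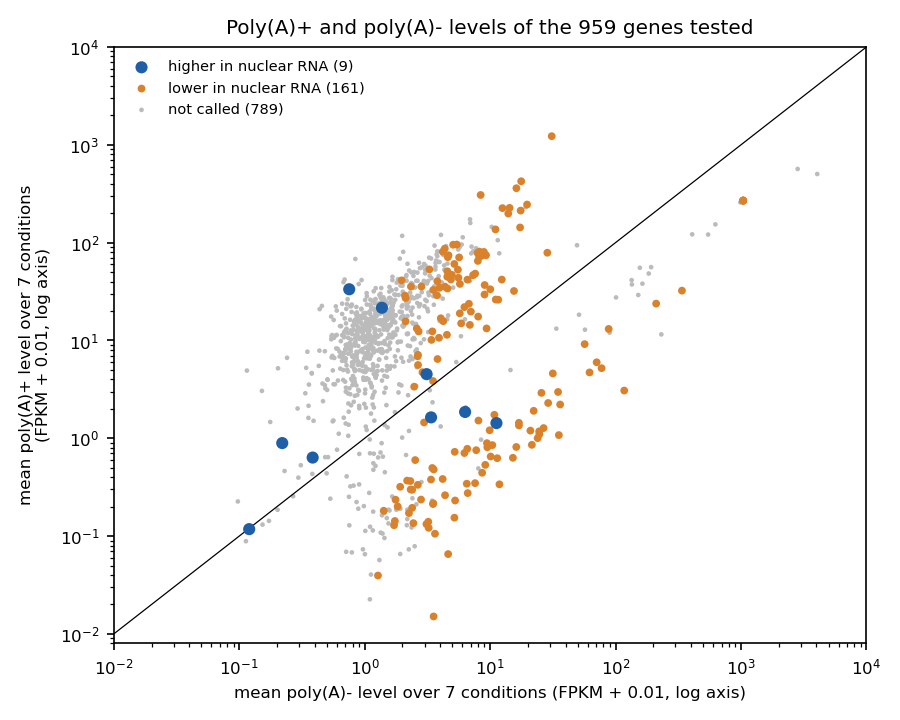
Mean poly(A)- level (x axis) and mean poly(A)+ level (y axis) over 7 conditions, in FPKM + 0.01 on log axes, for the 959 genes tested. Genes lower in nuclear RNA (orange) fall into a cloud above the line of equal levels and one below it; 7 of the 9 higher genes (blue) lie at a poly(A)+ level under 5 FPKM.

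The place of roots divided the first kind further. Of the 81 genes, 36 had their lowest poly(A)- level in roots and 24 their highest there, as against 111 and 213 of all 959. Genes with a tied lowest level were not counted in the 36 or the 111. Of the 36, 35 had their highest nuclear level in heat, and of the 24 none did, as against 105 of all 959 genes. In the 36, the median nuclear level was 6.21 FPKM in heat and 0.482 to 1.42 FPKM in the other conditions but roots, where it was 0. Their median poly(A)- level was 8.59 FPKM in heat, 4.16 to 26.5 FPKM in the other conditions but roots, and 0.785 FPKM in roots. In the 24, the median in roots was 0.794 FPKM in nuclear RNA and 27.1 FPKM in poly(A)- RNA. This division was made after the values had been seen and has no test, and the 36 and the 24 each include 5 loci of near-equal length, described below.

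**Figure D5:**
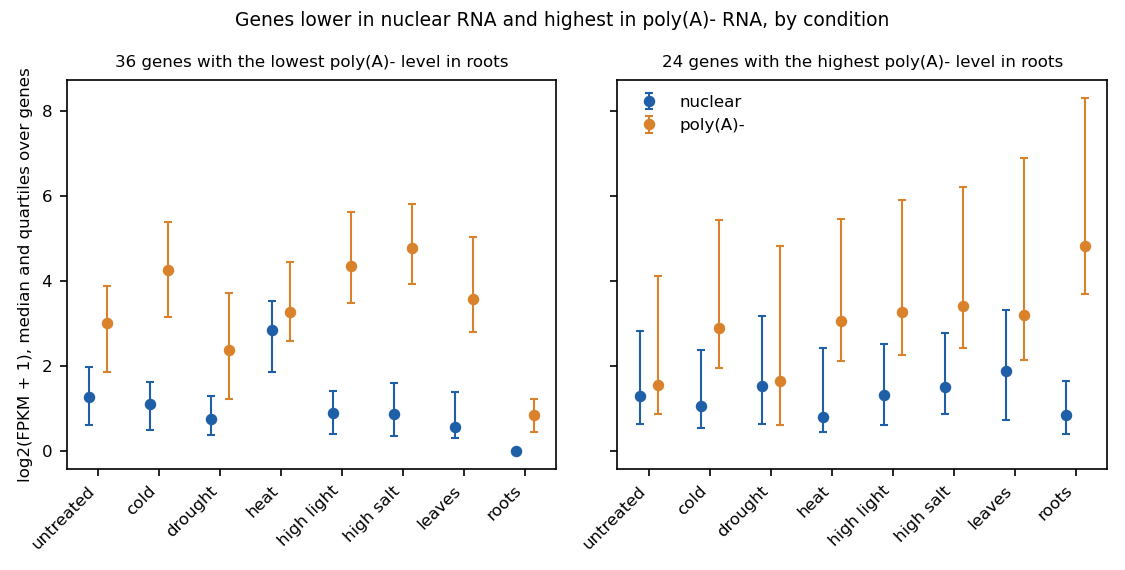
Median and quartiles over genes of the level on the log2(FPKM + 1) scale (y axis) by condition (x axis) in nuclear (left of each pair) and poly(A)- (right) RNA, for genes lower in nuclear RNA and highest in poly(A)- RNA. In the 36 genes of the left panel the nuclear level peaks in heat and is 0 in roots, and in the 24 genes of the right panel the poly(A)- level peaks in roots.

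Some lower genes had near-equal lengths and levels, and how the authors counted reads that fit several places is not stated in these sources. Sequences were not compared. Of 7 tested loci of one and the same exon length, 5 lie in a row at the start of chromosome 9 and were all called lower, and in each of the 16 libraries their levels differed by at most 1.98%. EPlOSAG00000008521 (3625 to 5436) had 154 to 781 FPKM in nuclear RNA with a median of 507 FPKM, against 601 to 1947 FPKM in poly(A)- RNA with a median of 814 FPKM. Its nuclear level was lowest in roots, where its poly(A)- level was highest, and nuclear minus poly(A)- was -1.07 ± 0.36 (SE) in log2 (limma adjusted p = 0.013). EPlOSAG00000008517, EPlOSAG00000008519 and EPlOSAG00000008520 had the same values within 1.98% and are not taken as further evidence. The calls of these 4 were lost without heat, without roots and with library medians subtracted (log2 difference of EPlOSAG00000008521 -0.99, -0.70 and -0.65). EPlOSAG00000008516, of the same length on chromosome 2, was not called, with 619 ± 226 FPKM in nuclear RNA and 1024 ± 620 FPKM in poly(A)- RNA (SD over conditions, n = 8; limma adjusted p = 0.19).

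Another 5 loci of near-equal length, 525 or 526 nt on 4 chromosomes, were lower as well, with poly(A)- means between 5.02 and 25.2 FPKM. EPlOSAG00000046965 on chromosome 12 had the smallest adjusted p of all EPlOSAG loci, with 0 to 2.36 FPKM in nuclear RNA and a median of 0.466 FPKM, against 0.384 to 9.82 FPKM in poly(A)- RNA and a median of 4.66 FPKM (log2 difference -1.67 ± 0.34, SE; limma adjusted p = 6.3e-05). Heat was its highest library and roots its lowest in both fractions, and small RNA reached 50.7 FPKM. The other 4 had log2 differences of -2.40 to -1.97 and 51.7 to 52.1 FPKM at most in small RNA.

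A stretch of chromosome 12 from 13373655 to 13409810 held 15 tested loci with less than 15000 nt between neighbours, singled out after the values had been seen. Of the 15, 9 were called lower, against 16.8% of all genes tested. The rest also had negative differences, and the 15 ran from -3.40 at XLOC_026433 to -0.48. Chromosome 12 had 25 of its 78 tested genes called lower (32.1%), the highest share of any chromosome, but the 25 include the 9 of this stretch. Chromosome 11 followed at 28.2%, and chromosome 8 had the lowest share at 8.33%. With library medians subtracted, 10 of 78 were lower on chromosome 12 and 6 of 39 on chromosome 11. Among all pairs of tested loci within 5000 nt on 1 strand, both were lower in 9 of 72 and 1 of the pair in 9 more. Several of these pairs lie in the stretch itself.

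Loci that mirror another listed locus on the opposite strand, over at least 0.5 of their span, made up 58 of the genes tested. Of the 58, 25 were lower in nuclear RNA (43.1%) and none was higher, with a median log2 difference of -0.93, against 15.1% lower and a median of -0.46 among the other 901. Of the 27 pairs tested on both strands, in which at least 1 member met this overlap, both members were lower in 10 and 1 member in 6. XLOC_037282 on chromosome 2 (6170850 to 6171226) had 0 to 1.03 FPKM in nuclear RNA with a median of 0.0494 FPKM, against 0.79 to 13.5 FPKM in poly(A)- RNA with a median of 2.99 FPKM, and a log2 difference of -1.97 (limma adjusted p = 7.2e-07). Its mirror XLOC_032562 had a log2 difference of -1.26. The libraries keep strand, but how the authors assigned reads to strands is not stated in these sources, so members of a pair are uncertain.

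The most abundant loci of the lists were such a pair. XLOC_048089 and XLOC_043227 cover the same 763 nt of chromosome 3 (11539610 to 11540373) on opposite strands, and neither was called. XLOC_048089 had 20.3 to 3915 FPKM in nuclear RNA with a median of 2122 FPKM, against 34.4 to 7534 FPKM in poly(A)- RNA with a median of 4360 FPKM; its log2 difference of -0.90 was under 2-fold (limma adjusted p = 0.00263). It passed the size rule without heat (-1.02) and without high salt (-1.01). XLOC_043227 had 29.1 to 4121 FPKM in nuclear RNA, against 29.7 to 5087 FPKM in poly(A)- RNA (log2 difference -0.48, limma adjusted p = 0.13). Roots were lowest in both fractions at both loci.

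Gene structure and the authors' classes went with the share of lower genes. Of single-exon genes 142 of 719 were lower (19.7%), of genes with 2 exons 11 of 93 (11.8%) and of genes with 3 or more exons 8 of 147 (5.44%), with median log2 differences of -0.55, -0.43 and -0.30. By exon length, 24.2% were lower under 300 nt, 20.5% from 300 nt to under 600 nt, 11.7% from 600 nt to under 1000 nt and 11.8% from 1000 nt. By identifier, 11 of 26 EPlOSAG loci, 105 of 589 XLOC loci and 45 of 344 OS loci were lower. Of the 11 EPlOSAG loci, 10 belong to the sets of equal or near-equal length described above. The EPlOSAG share thus rests mostly on loci that may not be separate cases. After subtraction of library medians the numbers were 6 EPlOSAG, 52 XLOC and 15 OS loci. With library medians subtracted the median difference turned above 0 in genes of 3 or more exons (0.12), in genes of 1000 nt or more (0.10) and, barely, in OS loci (0.0049).

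The level of a gene also went with its call, in part by construction. Adding 1 FPKM before taking logs shrinks the differences of genes under 1 FPKM, so few of these could reach the size rule. With 0.1 FPKM added instead, 300 genes of all levels were lower, against 161 as deposited. Of genes with a mean under 1 FPKM over the 16 libraries, 3 of 437 were lower; of those from 1 to 10 FPKM, 127 of 463; of those from 10 to 100 FPKM, 24 of 40; and of those at 100 FPKM or more, 7 of 19. Genes that reached 1 FPKM in small RNA were lower in 62 of 129 cases and higher in 3. The rest were lower in 99 of 830 cases and higher in 6.

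The authors' classes were made on these samples by a rule that these sources do not state, so they are no independent evidence. Of the genes they class as Poly(A)-, 52 of 74 were lower, of Bimorphic genes 59 of 233, and of Poly(A)+ genes 50 of 652, and the higher genes numbered 1, 6 and 2. With library medians subtracted the balance of Poly(A)+ genes turned, with 10 lower and 18 higher. Of the genes in their location class nucleus, 60 of 158 were lower in nuclear than in poly(A)- RNA and 6 were higher; of the class cytosol, 85 of 730 were lower and 2 higher; of the class bimorphic, 16 of 71 were lower and 1 higher. Every class, like the 959 genes as a whole, thus held more lower than higher genes. The class nucleus had the largest share of the 3 in both directions. In it 38% were lower and 3.8% higher, against 16.8% and 0.938% of all genes tested. All 60 lower genes of this class were among the 81 highest in poly(A)- RNA. Of the 80 lower genes highest in poly(A)+ RNA, 79 were of the class cytosol and 0 of the class nucleus. XLOC_068781 on chromosome 6 was the cytosol gene with the smallest adjusted p, with 0 to 1.58 FPKM in nuclear RNA, against 0.245 to 25.1 FPKM in poly(A)- RNA (log2 difference -2.50, limma adjusted p = 3.39e-07).

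Subtracting the median of each library over the genes tested moved the balance of calls. It gave 38 genes higher in nuclear RNA (3.96%) and 73 lower (7.61%), with the median difference near 0 as given above. All 73 were among the 161 and all 9 were among the 38, so 29 genes were higher on this scale alone. The 6 of these with the smallest adjusted p were XLOC_024277, XLOC_028026, XLOC_024294, XLOC_062145, XLOC_022992 and XLOC_000129. XLOC_024277, a 704 nt locus on chromosome 11, had 1.18 to 2.14 FPKM in nuclear RNA, against 0 to 1.15 FPKM in poly(A)- RNA, and XLOC_022992, of 386 nt on the same chromosome, had 0.59 to 2.21 FPKM, against 0 to 0.207 FPKM. Neither overlapped between fractions, nor did XLOC_000129. All 6 met the filter of 1 FPKM in 3 libraries through nuclear libraries alone, so it leaned to the side on which they were called. The log2 differences of XLOC_024277, XLOC_022992 and XLOC_000129 were 0.72, 0.97 and 0.72 as deposited, and 1.14, 1.39 and 1.14 with medians subtracted (limma adjusted p = 0.000373, 0.0006 and 0.000857 with medians subtracted).

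Stress was tested on the 8 within-condition differences, as 5 stressed against 3 unstressed conditions. No gene passed in either direction (0% of 959 called by limma), 98 had an unadjusted p under 0.05, and the smallest adjusted p was 0.11. The median gene's difference was 0.48 lower on the log2 scale in stressed than in unstressed conditions (-0.48), and this median was -0.0023 with library medians subtracted. Leaves and roots differ from seedlings in tissue too, so stress and tissue cannot be told apart in this test.

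In most of the leading genes by p, 1 or 2 libraries stood apart. OS05G0528701 on chromosome 5 had 0.233 to 0.918 FPKM in the stressed nuclear libraries, against 32 FPKM in leaves, 5.83 FPKM in roots and 0.981 FPKM in untreated seedlings. Its nuclear minus poly(A)- difference was 0.07 under stress and 2.35 without (limma adjusted p = 0.11). OS12G0114900 had a difference of -0.95 under stress and 1.33 without, with 21.7 FPKM in the nuclear RNA of leaves, and OS03G0803066 had -1.84 under stress and -0.23 without, with 15.6 FPKM in the poly(A)- RNA of heat. In the other direction XLOC_073640 had a difference of -0.40 under stress and -1.92 without, with 12.7 FPKM in the poly(A)- RNA of roots. XLOC_035054 had -0.29 under stress and -1.93 without, and XLOC_078921 had 1.87 under stress and -0.53 without. Without drought 21 genes passed with a smaller difference under stress, and without untreated seedlings 2 passed with a smaller and 1 with a larger one. OS05G0528701 and OS12G0114900 passed in both of these cases, OS03G0803066 without drought and XLOC_073640 without untreated seedlings.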

How the data were processed

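The authors deposited FPKM values per lncRNA for each fraction and condition. Per the submitters' processing notes the tools were TopHat2 and DESeq2 on build IRGSP-1.0, with no roles or versions; no read counter is named in these sources. Per the labels' protocols, RNA was depleted of ribosomal RNA, poly(A)+ and poly(A)- RNA were parted on oligo(dT) beads, and libraries kept strand. Columns were tied to samples by name, and 8 FPKM columns were not used. Which of the 2 drought poly(A)- samples, or a pool, its column holds is not given.

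One row per gene was tested with limma 3.58.1 in R 4.3.3 on the log2(FPKM + 1) scale, blocking on condition, with a trended prior (137 degrees of freedom beside 7 residual) and Benjamini-Hochberg adjustment. Both fits were tested on simulated data. Depth was recovered as whole reads from the FPKM steps: 100% of 89437 values of single-exon genes of up to 200 reads were whole within 0.05 reads. Named genes were all higher genes; of lower genes the 10 largest differences in all 8 conditions, the 4 most abundant and the leaders by p of classes; the 3 most abundant uncalled; the 6 leaders with library medians subtracted; and 3 per direction for stress. Members and lists were chosen with earlier results of these data known. Coordinates are as deposited.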

Additional observations from a re-analysis of the deposited data

How the results depend on the processing

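No gene named for nuclear against poly(A)- RNA reversed its direction under any alternative in which it was tested. As deposited there were 9 genes higher and 161 lower in nuclear RNA. A pseudocount of 0.1 FPKM gave 37 and 300, a pseudocount of 0.5 FPKM 25 and 258, library medians subtracted 38 and 73, and limma voom on the recovered reads 36 and 314 with a median log2 difference of -1.07. Without a filter on low values limma called 0 and 0 of 7231 genes, with 933 at an unadjusted p under 0.05. The 6 seedling conditions gave 14 higher genes. Filters of 1 FPKM in 8 libraries or on the mean, a prior without a trend and leaving out mirrored loci moved neither count by more than 1.5 times. Without the condition block 7 were higher and 152 lower. Leaving out 1 condition at a time gave 6 to 13 higher and 121 to 211 lower genes and a median between -0.64 and -0.42; for stress it gave 0 to 1 genes with a larger and 0 to 21 with a smaller difference. Depth limits low genes: 33 of the 161 were below 1 FPKM in every nuclear library.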
